A study of Capra hircus with 9 samples.

Results

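The HOX cluster genes of the goat uterus are described here across 3 days around implantation. A gene row of the deposited count table was taken as a member when its name was HOX, a cluster letter from A to D and a paralogue number. The rule found 36 members among 25671 gene rows. HOXB4 and HOXD4 are not analysed here, and HOXA10 is taken up below under the name that its row carries.

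The samples were 9 libraries of poly(A) RNA from Liaoning Cashmere goats (Capra hircus), a fibre breed, in 3 groups of 3. The groups were labelled day 6, day 16 and day 19 peri-implantation, with no other treatment or genotype named. The labels do not state the event from which the days were counted or the age and pregnancy status of the animals. They name the tissue as uterus, the series title speaks of endometrial epithelium and the collection text of testis. Whether the libraries of a day stand for different animals is not stated; the p-values below therefore reflect library-to-library spread, part of which may be technical.

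HOX genes encode homeodomain transcription factors and lie in 4 clusters, HOXA to HOXD, in which the order of the genes along the chromosome follows the order in which they are used along the body axis. Genes with low paralogue numbers act towards the head and those with high numbers towards the tail. In the mouse Müllerian duct, which forms the female tract, HOXA9 marks the future oviduct, HOXA10 the uterus, HOXA11 the lower uterus and cervix, and HOXA13 the upper vagina. The adult uterus keeps expressing HOXA10 and HOXA11 in its stroma, and female mice that lack either gene are subfertile or infertile because implantation and the stromal response to it fail. HOX proteins bind DNA with partners of the PBX and MEIS families, and Polycomb and Trithorax proteins keep their clusters silent or active.

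The libraries held between 8712751 and 11074693 counted reads. The third library of day 19 and the second differed from each other by a chi-square per degree of freedom of 22.6, but the first day 19 library differed from them by 123.9 and 139.7. The other pairs of libraries of the same day lay between 9.86 and 37.5. The first day 19 library also had the lowest share of ribosomal protein reads, 2.42%, against 5.64% and 6.61% in the other day 19 libraries. The day 6 and day 16 libraries lay between these, from 3.64% to 4.34%. Summed Trithorax genes, given below, lay in the range of the earlier days only in the first day 19 library. Which day 19 libraries were unusual was not tested. HOX genes described below whose call between 2 days changes without the first day 19 library are named. For the other gene lists that fit is mostly not given. Levels are in CPM, the reads of a gene scaled to a common library total. Summed smooth muscle markers were 9727, 35309 and 28314 CPM in the day 6 libraries, from 21942 to 23183 CPM at day 16, and from 28229 to 45534 CPM at day 19. Stromal markers summed to at least 15837 CPM in every library and epithelial markers to between 736 and 1303 CPM, so stromal and muscle RNA was present beside that of epithelium. Of 10 testis germ cell markers, 7 had rows, 4 of these (SYCP3, TNP1, SPATA16 and ODF1) were at 0 throughout, and the list summed to at most 1.98 CPM. Of 13 trophoblast markers, 5 had rows, and these summed to at most 6.18 CPM, of which the PAG1 row gave 5.66 CPM. The listed IFNT, TKDP1, CSH1 and PAG2, among others, had no row, so the sum says little about trophoblast RNA. In bulk tissue, fewer cells of a type and less RNA per cell cannot be told apart.

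The HOXA, HOXB and HOXD clusters gave nearly all HOX reads, and the HOXC cluster about 1% of them or less. After removal of rows with too few counts for a test, 24 of the 36 members remained: 9 of 10 in HOXA, 7 of 9 in HOXB, 3 of 9 in HOXC and 5 of 8 in HOXD. The 12 others had at most 34 counts over all 9 libraries. They were HOXA13, HOXB1, HOXB13, HOXC5, HOXC8, HOXC9, HOXC10, HOXC12, HOXC13, HOXD1, HOXD12 and HOXD13. HOXB1, HOXB13 and HOXD12 had no count in any library, which allows up to 0.271 to 0.344 CPM depending on the library, at 3 counts each and for counting error only. Outside HOXC, the genes that were not measured lay at the ends of the clusters: no member of paralogue groups 12 and 13 was measured, and HOXB1 and HOXD1 were not. HOXA13, which specifies the vagina in the mouse tract, had 6 counts in all and at most 1 in a library.

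CPM values were computed after TMM scaling of the libraries (trimmed mean of M-values). The file gives no gene lengths, so levels are compared between days and not between genes. All HOX rows together reached 845 ± 39.2 CPM at day 6, 790 ± 48.4 CPM at day 16 and 1097 ± 256 CPM at day 19 (SD, n = 3 each). The share of HOXA genes in the HOX counts was 39.2 ± 2.94% (day 6), 41.8 ± 5.19% (day 16) and 57.3 ± 4.95% (day 19). HOXB genes held 35.6 ± 3.71%, 39.2 ± 6.04% and 24.5 ± 3.57% on the same days. The gain of the HOXA cluster lay in HOXA11, which held 24.2 ± 2.06% of them at day 6, 24.9 ± 6.89% at day 16 and 46.4 ± 5.65% at day 19. HOXD genes held 24.3 ± 1.23%, 18.0 ± 0.724% and 17.4 ± 1.75%, and the HOXC genes 0.952%, 1.03% and 0.809%. These shares are of reads, which grow with transcript length, and were not tested.

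**Figure D1:**
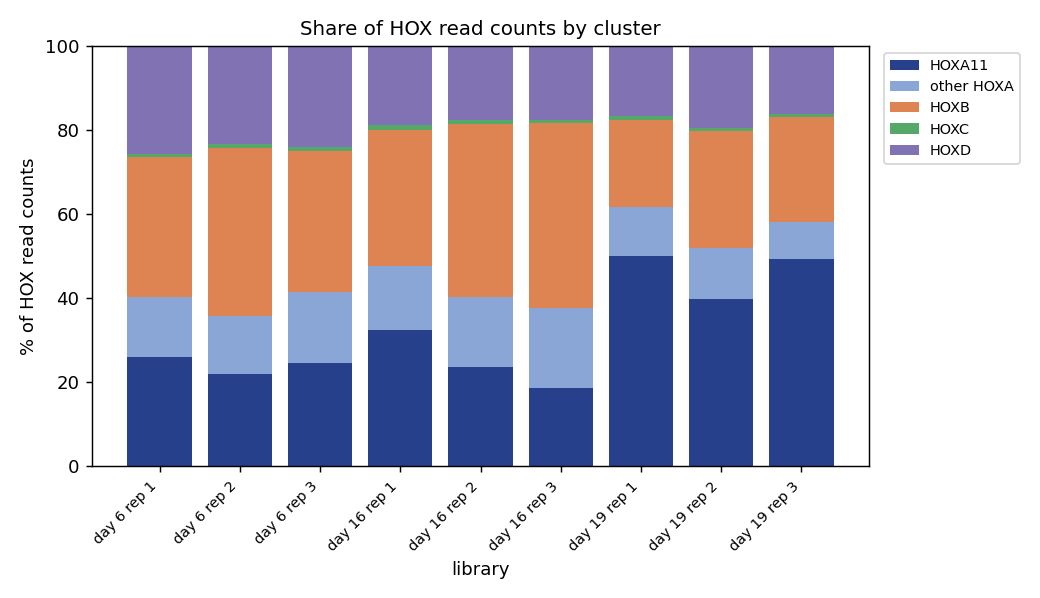
Share of HOX read counts, in percent, held by HOXA11, the other HOXA genes, HOXB, HOXC and HOXD in each of the 9 libraries. The HOXA11 part averaged 24.2% at day 6, 24.9% at day 16 and 46.4% at day 19.

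Few HOX genes passed the test between the days. Differences were tested for all 16098 genes that passed the filter with edgeR's quasi-likelihood test, with calls made at an adjusted p under 0.05 (Benjamini-Hochberg). Between day 16 and day 6, 1 of the 24 measured HOX genes was called (4.17%), against 8.86% of all genes. Between day 19 and day 16, 1 of 24 was called, against 1.2% of all genes. In the comparison of day 19 with day 6, 4 of 24 were called (16.7%), against 22.9% of all genes. The F test for any difference among the 3 days called 3 of 24, HOXA2, HOXA3 and HOXA11 (12.5%), against 19.6% of all genes. The called HOX genes were HOXA11, which was higher at day 19, and HOXA2, HOXA3 and HOXB5, which were lower. DESeq2, another count test, called 3, 3 and 6 members in the 3 comparisons, against 14.2%, 11.2% and 30.8% of all genes, and 7 in the test for any difference, against 31.8%. The comparisons share libraries, since each day enters more than 1 of them. Without the first day 19 library the called members numbered 5, 10 and 9 in the 3 comparisons, against 20.4%, 44.7% and 54.2% of all genes, and 15 in the test for any difference, against 59.1%.

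**Figure D2:**
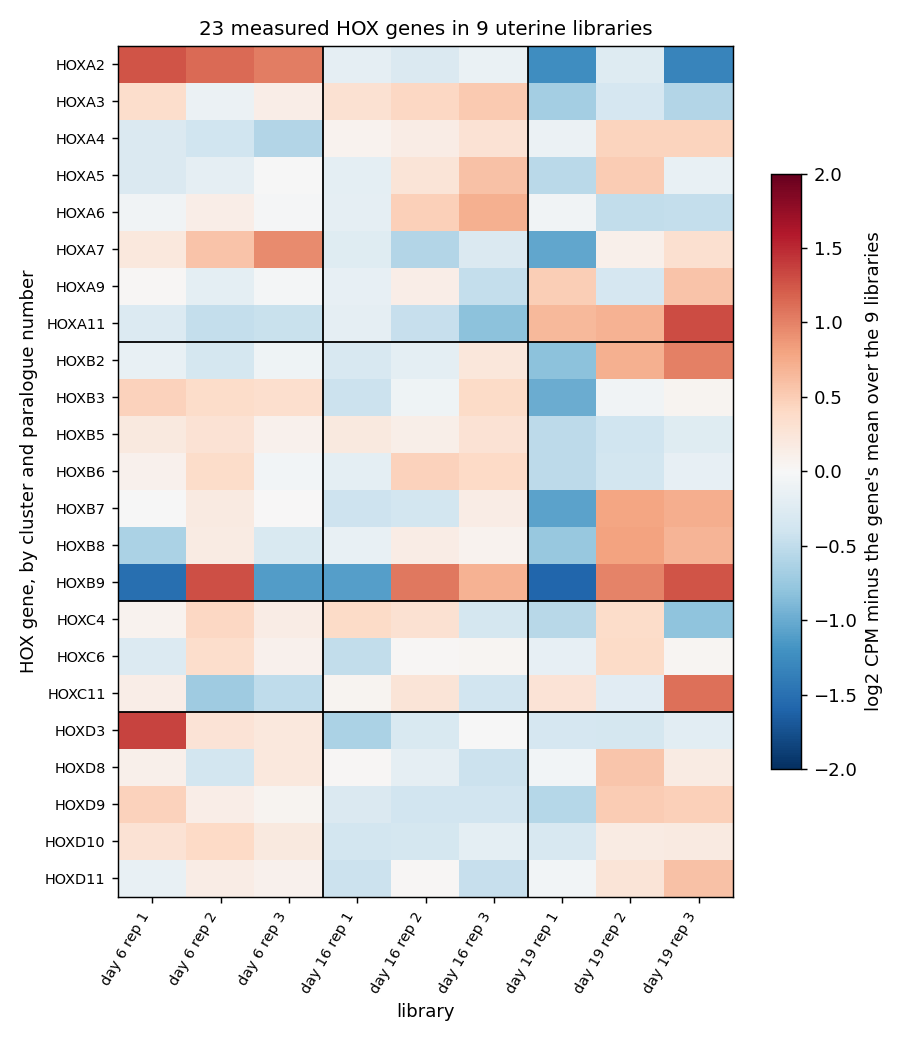
Log2 CPM of 23 of the 24 measured HOX genes (rows, by cluster and paralogue number) in the 9 libraries (columns, by day), each minus the gene's mean over the 9 libraries. HOXA11 is higher in all 3 day 19 libraries, HOXA2 is highest in the 3 day 6 libraries, and HOXB9 differs more between libraries of 1 day than between days.

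HOXA11, needed in mice for stromal and glandular development of the uterus, had the largest rise of the measured HOX genes. Its 3 libraries of day 6 had 222, 193 and 198 CPM, those of day 16 had 238, 195 and 152 CPM, and those of day 19 had 422, 437 and 666 CPM. Every day 19 library lay above every earlier one, and the day 16 and day 6 libraries overlapped. Means were 204 ± 15.7 CPM at day 6, 195 ± 42.8 CPM at day 16 and 509 ± 137 CPM at day 19 (SD, n = 3 each). Relative to day 6 the log2 fold change at day 19 was 1.31 (SE 0.24, adjusted p = 0.00547, edgeR), and the call held whichever library was left out (adjusted p from 0.000489 to 0.0313). Relative to day 16 the log2 fold change was 1.39 (SE 0.25, adjusted p = 0.0451, edgeR). Of all genes, 0.516% were called higher in that comparison. That call was lost when any library other than the first of day 19 was left out (adjusted p from 0.0791 to 0.175). In those fits at most 0.0978% of all genes were called in that comparison. Without the first day 19 library the log2 fold change was 1.52 (adjusted p = 0.000536), and 44.7% of all genes were called. Over all fits without 1 library the log2 fold change lay between 1.15 and 1.55. Between day 16 and day 6 the log2 fold change was -0.07 (adjusted p = 0.927). Whether reads were counted by strand is not given in the sources used here, and in mammals an antisense RNA is transcribed across HOXA11, so the row may hold reads of both.

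Marker sums of stroma, smooth muscle and epithelium were set beside the HOXA11 difference. Per 1000 CPM of stromal markers, HOXA11 had 18.2, 25.4 and 27.4 CPM in the day 19 libraries, against 12.8, 9.69 and 9.60 CPM at day 16. Against smooth muscle markers it had 14.9, 15.5 and 14.6 CPM per 1000 at day 19 and 10.8, 8.43 and 6.56 CPM per 1000 at day 16. In both ratios the day 19 libraries lay above all day 16 libraries. The day 6 libraries had 8.53, 7.62 and 7.45 CPM of HOXA11 per 1000 CPM of stromal markers, below those of day 16 and day 19. Per 1000 CPM of smooth muscle markers they had 22.9, 5.47 and 6.99 CPM, which overlaps with day 19 through the first day 6 library, the one with the low smooth muscle sum. In the stromal list, COL1A1 and COL3A1 had log2 fold changes of -0.76 and -0.83 between day 16 and day 6, neither called, while DCN and VIM had -0.02 and 0.15. Per 1000 CPM of epithelial markers HOXA11 had 272, 262 and 268 CPM at day 6. At day 16 it had 193, 161 and 129 CPM, below day 6, and at day 19 517, 336 and 726 CPM, above both. None of the 11 smooth muscle markers passed the test between day 19 and day 16 (2 at unadjusted p under 0.05, median log2 fold change 0.65) and none of the 11 stromal ones (1 at unadjusted p under 0.05, median 0.23). The part of the markers in the HOXA11 difference was not tested further.

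HOXA10, the uterine member of the mouse tract code, was found by its gene identifier and not by its symbol. Of 37 HOX symbols in a reference gene table of the goat assembly ARS1.2, 36 matched a row by name. The gene identifier that this reference names HOXA10, a protein-coding gene between HOXA9 and HOXA11, stands in the count table as LOC106501762, typed as a miscellaneous RNA and described as a Hox-B6 pseudogene. The row is no member by the naming rule, and its identity is not settled by the names. It had 165, 195 and 189 CPM in the day 6 libraries, 198, 192 and 157 CPM at day 16, and 475, 285 and 363 CPM at day 19. Its day 19 libraries were all above the earlier ones, as in HOXA11, although the highest day 19 library was the first here and the third in HOXA11. Over day 6 the day 19 log2 fold change was 1.03 (SE 0.22, adjusted p = 0.00959, edgeR), called in all 9 fits that left out a library (adjusted p from 0.00147 to 0.0476). Between day 19 and day 16 it was 1.04 (SE 0.22) and missed the threshold (adjusted p = 0.0557); without the first day 19 library it was 0.84 and was called (adjusted p = 0.00198). Between day 16 and day 6 it was -0.00 (adjusted p = 0.998). Set against 1000 CPM of stromal markers, the row had 20.5, 16.6 and 14.9 CPM at day 19, above the 10.7, 9.58 and 9.94 CPM at day 16 and all day 6 libraries. Per 1000 CPM of smooth muscle markers the row overlapped between all 3 days, with 16.9, 5.51 and 6.68 CPM at day 6, 9.02, 8.34 and 6.79 CPM at day 16, and 16.8, 10.1 and 7.97 CPM at day 19. Per 1000 CPM of epithelial markers its day 19 libraries had 582.1, 218.7 and 395.3 CPM. These lay above day 16 and overlapped with the 201.5, 264.3 and 256.1 CPM of day 6. HOXB6 itself, which patterns the trunk, was not higher at day 19, with 159 ± 24.2 CPM at day 6, 171 ± 39.0 CPM at day 16 and 113 ± 14.1 CPM at day 19.

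HOXA9, the oviduct member of the mouse code, passed no test. It had 18.0, 15.4 and 17.2 CPM at day 6, 15.8, 19.5 and 12.8 CPM at day 16, and 25.0, 14.0 and 26.2 CPM at day 19. The day 19 libraries overlapped with both earlier days (log2 fold change 0.44, adjusted p = 0.323 against day 16; 0.36, adjusted p = 0.342 against day 6). Its row is described in the file as Hox-A10-like, while its symbol and gene identifier are those of HOXA9, so HOXA9 and HOXA10 reads are uncertain one by one.

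**Figure D3:**
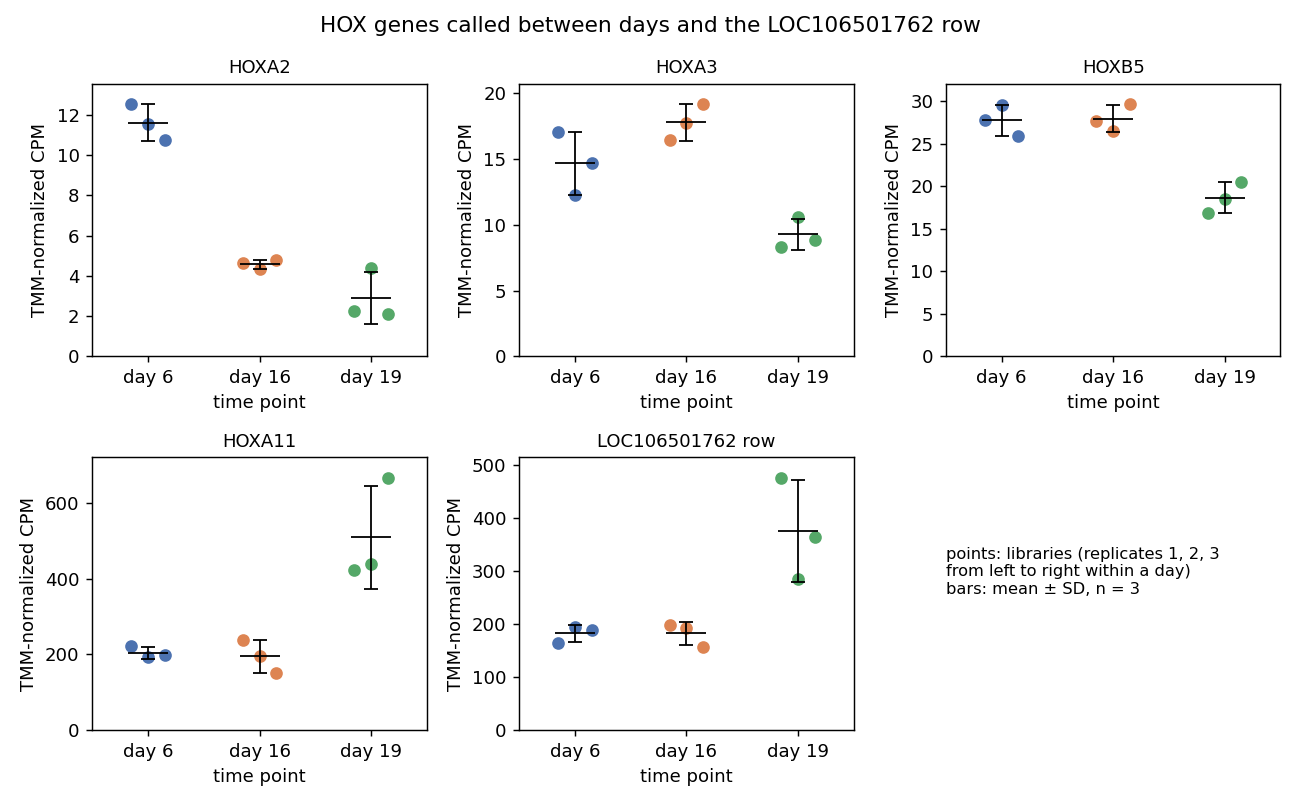
TMM-normalized CPM of HOXA2, HOXA3, HOXB5, HOXA11 and the LOC106501762 row by day, with points for libraries and bars for mean ± SD (n = 3). HOXA2 falls below all day 6 libraries by day 16, HOXA3 and HOXB5 are lowest at day 19, and HOXA11 and LOC106501762 are highest at day 19.

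HOXA2, which sets the identity of the second pharyngeal arch and hindbrain segments in the mouse embryo, fell most. Its libraries had 12.5, 11.5 and 10.7 CPM at day 6, 4.63, 4.33 and 4.78 CPM at day 16, and 2.23, 4.39 and 2.12 CPM at day 19. The day 6 libraries lay above all others, and 1 library of day 19 overlapped with day 16. The means were 11.6 ± 0.905 CPM at day 6, 4.58 ± 0.23 CPM at day 16 and 2.91 ± 1.28 CPM at day 19 (SD, n = 3 each). The log2 fold change between day 16 and day 6 was -1.34 (SE 0.31, adjusted p = 0.0272, edgeR), where 3.74% of all genes were called lower. This call was lost when any 1 of the 6 libraries of those days was left out (adjusted p from 0.0783 to 0.107), although the log2 fold change kept between -1.39 and -1.28. Between day 19 and day 6 the log2 fold change was -1.99 (SE 0.32, adjusted p = 0.0027, edgeR), called whichever library was left out (adjusted p from 0.00114 to 0.013). The step between day 19 and day 16 was -0.65 (SE 0.32, adjusted p = 0.239). Per 1000 CPM of stromal, smooth muscle or epithelial markers, HOXA2 was lower in all day 16 and day 19 libraries than in all day 6 libraries.

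HOXA3, required for thymus and parathyroid formation in mice, was lowest at day 19. It had 17.1, 12.3 and 14.7 CPM at day 6, 16.4, 17.8 and 19.2 CPM at day 16, and 8.35, 10.6 and 8.89 CPM at day 19. The day 19 libraries lay below all the others. The log2 fold change between day 19 and day 6 was -0.66 (SE 0.21, adjusted p = 0.0467, edgeR). That call held without the first day 19 library (adjusted p = 0.0342) and was lost without each of the 8 others (from 0.0615 to 0.148). The log2 fold change of -0.94 (SE 0.21) between day 19 and day 16 missed the threshold in edgeR with all libraries (adjusted p = 0.0602). DESeq2 called this step (adjusted p = 0.00202), where it called 11.2% of all genes. Without the first day 19 library edgeR also called it (log2 fold change -0.86, adjusted p = 0.00731), with 44.7% of all genes called.

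HOXB5, which acts in the gut nervous system and the trunk, had the smallest spread between libraries of the same day of all measured HOX genes. Its libraries had 27.8, 29.6 and 25.9 CPM at day 6, 27.7, 26.4 and 29.7 CPM at day 16, and 16.9, 18.5 and 20.5 CPM at day 19. The day 6 and day 16 libraries overlapped and the day 19 libraries were all below them. The log2 fold change between day 19 and day 6 was -0.57 (SE 0.17, adjusted p = 0.0366, edgeR), called without the first day 19 library (adjusted p = 0.0147) and lost without each of the 8 others (from 0.0536 to 0.127). Against day 16 it was -0.58 (SE 0.17, adjusted p = 0.0976, edgeR). DESeq2 called this step (adjusted p = 0.016), as did edgeR without the first day 19 library (log2 fold change -0.51, adjusted p = 0.0169). In the comparison of day 19 with day 6, 10.2% of all genes were called lower and 12.7% higher. Per 1000 CPM of stromal markers, HOXA3 and HOXB5 overlapped between day 19 and day 6. Per 1000 CPM of epithelial markers both were lower in all day 19 libraries than in all day 6 libraries, while per 1000 CPM of smooth muscle markers HOXB5 was lower in all day 19 libraries and HOXA3 overlapped.

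HOXA4 to HOXA7 were not called by edgeR with all libraries. HOXA4, a gene of the neck vertebrae, had 5.59 ± 0.581 CPM at day 6, 8.44 ± 0.613 CPM at day 16 and 9.08 ± 1.89 CPM at day 19. All its libraries of day 16 and of day 19 lay above all those of day 6 (adjusted p = 0.2 at day 16 and 0.0695 at day 19). For day 19 against day 6 HOXA4 was called by DESeq2 (adjusted p = 0.0405) and by edgeR without the first day 19 library (log2 fold change 0.87, adjusted p = 0.00653). HOXA7, an axial patterning gene, went the other way between day 16 and day 6, with 11.7 ± 1.40 CPM at day 16 and 23.1 ± 5.88 CPM at day 6 and no overlap (log2 fold change -0.97, adjusted p = 0.124); without the first day 19 library it was called (-0.97, adjusted p = 0.00887). At day 19 HOXA7 had 14.2 ± 6.05 CPM. HOXA5, a lung and trunk gene, had 34.3 ± 3.38 CPM at day 6, 45.5 ± 12.1 CPM at day 16 and 38.3 ± 14.4 CPM at day 19, with overlapping days. HOXA6 had 12.5 ± 0.947 CPM at day 6, 16.1 ± 4.72 CPM at day 16 and 9.81 ± 1.68 CPM at day 19, and its highest day 19 library, at 11.75 CPM, lay just below its lowest day 6 library, at 11.79 CPM. Without the first day 19 library HOXA6 was called lower at day 19 than at day 16 (log2 fold change -0.86, adjusted p = 0.0234).

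Within the HOXD cluster, all 5 measured genes had a negative log2 fold change between day 16 and day 6 (median -0.57, against -0.00 over all genes), and edgeR called none with all libraries (2 at unadjusted p under 0.05). The 5 values stayed negative under each scaling. HOXD10, a gene of the lumbar spinal cord and hindlimb, had 60.8, 61.6 and 68.1 CPM at day 16, against 95.8, 103 and 89.2 CPM at day 6. HOXD9, which acts with HOXD10 in the hindlimb, had 35.7, 33.7 and 33.5 CPM at day 16, against 60.3, 47.8 and 45.2 CPM at day 6. In both genes the days did not overlap, with log2 fold changes of -0.60 (adjusted p = 0.0693) and -0.57 (adjusted p = 0.268). DESeq2 called HOXD10 (adjusted p = 0.0202). Both were called without the first day 19 library (adjusted p = 0.0035 and 0.0137) and in the fit to the day 16 and day 6 libraries alone (adjusted p = 0.00754 and 0.0256). At day 19 HOXD10 had 62.5, 88.1 and 89.0 CPM and HOXD9 had 29.6, 62.1 and 60.9 CPM. The first day 19 library was the low one in both, within or below the day 16 values, and the other day 19 libraries lay above every day 16 library. HOXD3, an axial gene of the neck, had 13.1 ± 6.27 CPM at day 6, 6.53 ± 1.39 CPM at day 16 and 6.49 ± 0.332 CPM at day 19. Its day 6 value rests on 1 library with 20.3 CPM, the other day 6 libraries having 9.68 and 9.26 CPM, yet neither later day overlapped with day 6 (adjusted p = 0.111 at day 16 and 0.0584 at day 19). DESeq2 called HOXD3 lower at day 19 than at day 6 (log2 fold change -1.02, adjusted p = 0.0267). HOXD8 had 14.4 ± 2.89, 12.6 ± 2.00 and 17.0 ± 3.68 CPM at day 6, day 16 and day 19. HOXD11, a forearm and kidney gene that overlaps in function with HOXA11 in mice, had 30.2 ± 3.19 CPM at day 6, 24.4 ± 4.88 CPM at day 16 and 35.8 ± 7.95 CPM at day 19 (log2 fold change against day 16 0.55, adjusted p = 0.176). Without the first day 19 library HOXD11 was called higher at day 19 than at day 16 (log2 fold change 0.71, adjusted p = 0.0124).

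**Figure D4:**
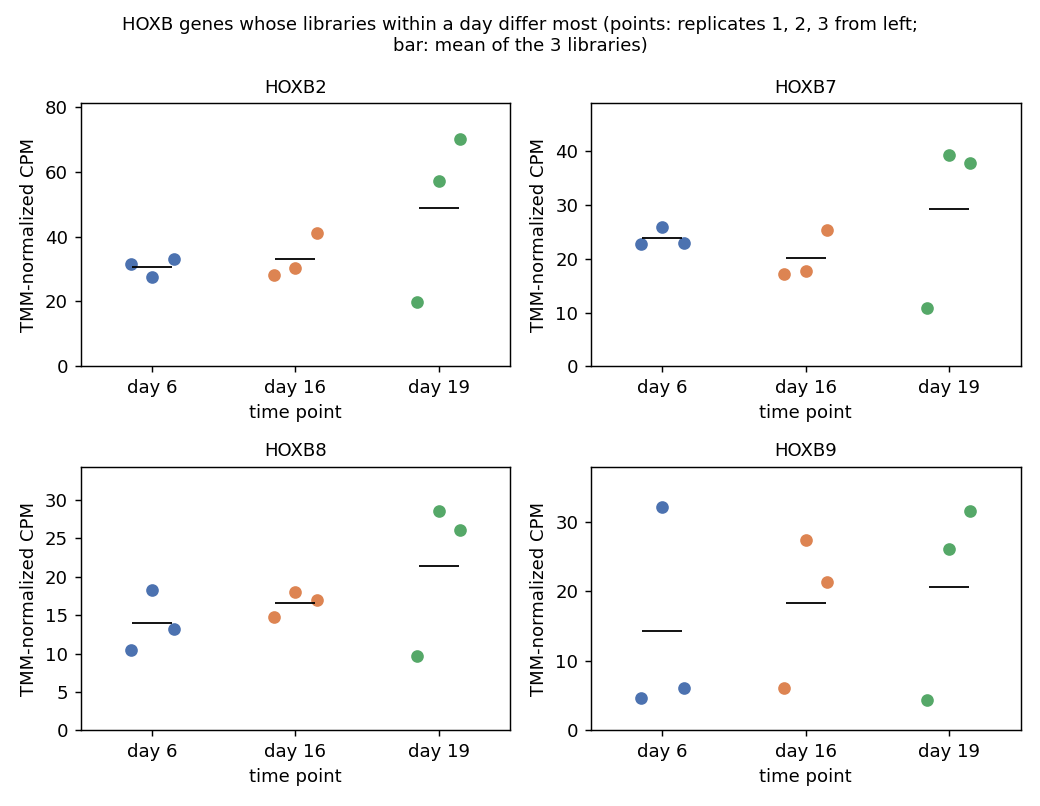
TMM-normalized CPM of HOXB2, HOXB7, HOXB8 and HOXB9 in each library by day, with a bar at the mean of 3. In all 4 genes the first day 19 library is low, and HOXB9 is split into low and high libraries on every day.

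HOXB9, a gene of the thoracic skeleton and mammary gland, varied far more between libraries of the same day than between days. It had 4.64, 32.1 and 6.04 CPM at day 6, 6.11, 27.3 and 21.4 CPM at day 16, and 4.37, 26.2 and 31.5 CPM at day 19. Of the 9 libraries, 4 had at most 6.11 CPM and the 5 others at least 21.4 CPM, with both kinds on each day. On every day the first library was low and the second high. Whether equal replicate numbers link samples is not stated. The SD of its log2 CPM within days was 1.40, against a median of 0.34 over 5107 genes whose mean level was within a factor of 2 of its own, and 0.783% of those genes varied more. The median of that SD over the 24 measured HOX genes was 0.33 and over all genes 0.38. None of the day comparisons of HOXB9 passed (adjusted p from 0.678 to 0.909).

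HOXB2, HOXB7 and HOXB8 followed HOXB9 in spread, with the first day 19 library on the other side of the earlier days from the rest of day 19. HOXB2, a gene of the facial nerve and hindbrain, had from 27.5 to 33.1 CPM at day 6, from 28.0 to 41.0 CPM at day 16 and 19.7, 57.0 and 70.0 CPM at day 19. HOXB7 had from 22.7 to 25.8 CPM at day 6, from 17.2 to 25.4 CPM at day 16 and 10.9, 39.2 and 37.8 CPM at day 19. HOXB8, which is active in blood and microglial precursors in mice, had from 10.5 to 18.2 CPM at day 6, from 14.7 to 18.0 CPM at day 16 and 9.62, 28.6 and 26.1 CPM at day 19. In each gene the first day 19 library was the lowest of all 9 and the others of day 19 were the highest of all 9. With all libraries edgeR called no comparison of these genes (adjusted p from 0.231 to 0.929). Voom with sample quality weights, which lowers the weight of libraries that stand apart, called all 3 between day 19 and day 16. It called 45.7% of all genes there, and the same 10 HOX genes as the fit without the first day 19 library. These fits share libraries and are not independent checks. Without the first day 19 library all 3 were called higher at day 19 than at day 16, with log2 fold changes of 0.95, 0.95 and 0.73 (adjusted p = 0.00269, 0.00287 and 0.0223), and also than at day 6. The day 19 libraries kept there had the highest ribosomal protein shares of all libraries (6.61% and 5.64%). They also had the lowest Trithorax sums (718 and 730 CPM). Whether these libraries or the first one were unusual was not tested. In that fit, with 44.7% of all genes called between day 19 and day 16, the 10 called members were HOXA11, HOXB2, HOXB7, HOXB8, HOXD9, HOXD10 and HOXD11, which were higher, and HOXA3, HOXA6 and HOXB5, which were lower. HOXB3 and HOXB6 were not called in either fit. HOXB3 had 32.0 ± 1.42 CPM at day 6, 24.3 ± 7.0 CPM at day 16 and 20.4 ± 7.08 CPM at day 19, and its day 19 libraries were all below those of day 6 (adjusted p = 0.14).

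The 3 measured HOXC genes were low on every day and passed no test. HOXC6, a thoracic and mammary gene, had 3.90 ± 0.837 CPM at day 6, 3.39 ± 0.658 CPM at day 16 and 3.97 ± 0.758 CPM at day 19. HOXC4 had 2.16 ± 0.277, 2.05 ± 0.529 and 1.57 ± 0.721 CPM at day 6, day 16 and day 19, and HOXC11 had 1.22 ± 0.394, 1.52 ± 0.329 and 2.14 ± 1.02 CPM. At these levels a HOXC gene had between 9 and 48 reads in a library. The SE of the log2 fold change was between 0.32 and 0.48. A change had to be several times its SE to be called, so even changes well above that size could have been missed.

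Arranged by paralogue number, the log2 fold changes between day 19 and day 16 were as follows. All 7 measured genes of paralogue groups 9 to 11 had positive values, with a median of 0.49, from 0.18 in HOXB9 to 1.39 in HOXA11, and 1 of them (HOXA11) was called. Among the 6 measured genes of groups 1 to 3, 1 was positive (HOXB2) and the median was -0.27. Without the first day 19 library 3 of these 6 were positive, with HOXB3 at 0.01 and HOXD3 at 0.02, and the median was -0.09, while all 7 of groups 9 to 11 were positive with a median of 0.67. The 11 genes of groups 4 to 8 were 6 positive and 5 negative, with a median of 0.10. Over all genes tested the median was 0.01 and 50.82% were positive. The 7 positive values held under every other scaling, filter and tool, and HOXB9 turned negative without the first day 16 library or without the second or the third day 19 library. Between day 16 and day 6 the same 7 genes had 2 positive values and a median of -0.08. At day 19 against day 6 they had 5 positive values and a median of 0.36, and the 6 of groups 1 to 3 had 2 positive values, a median of -0.66 and 2 called, both lower. Of all genes, 10.2% were called lower at day 19 than at day 6, and 0.516% higher at day 19 than at day 16. The difference between the ends was not tested, since genes of 1 cluster are not replicates.

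**Figure D5:**
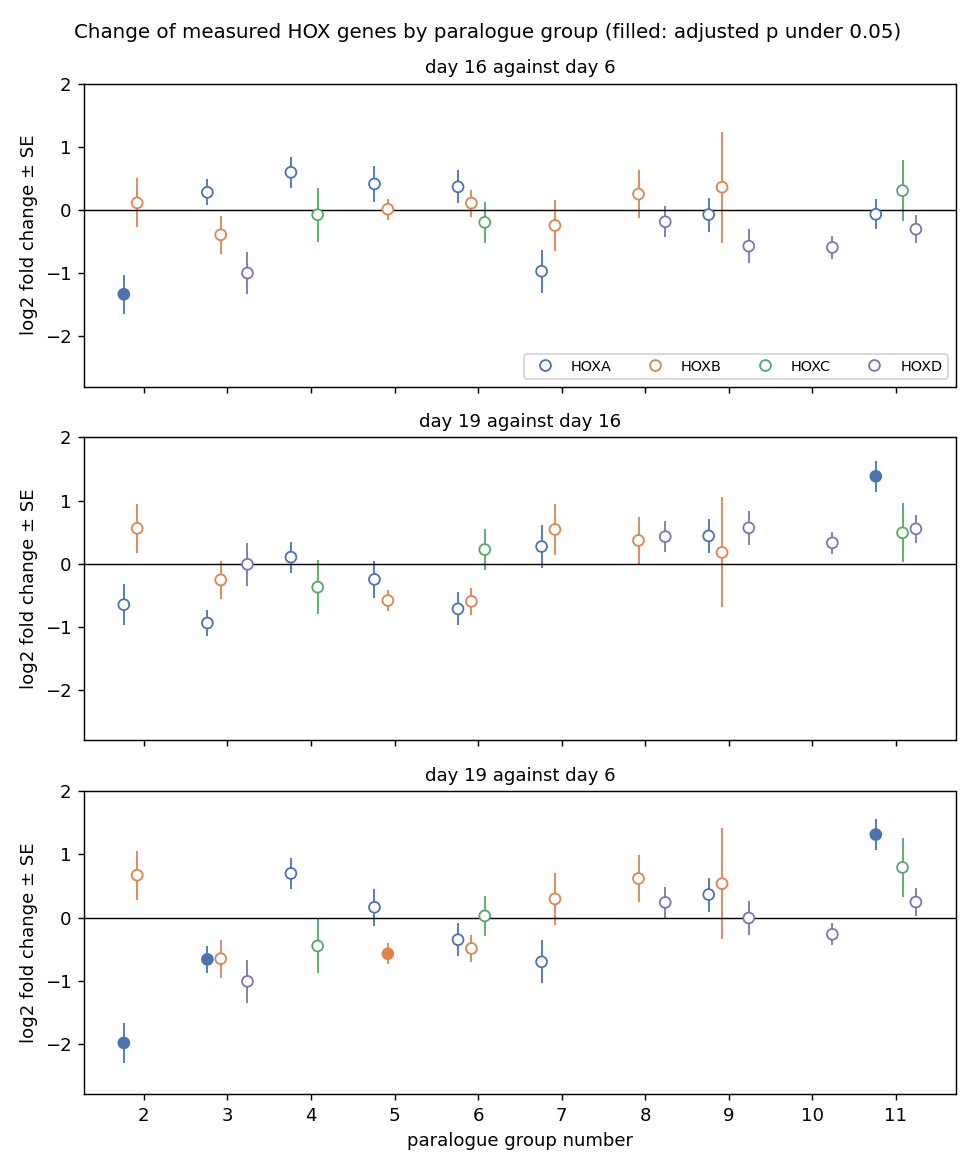
Log2 fold change ± SE of 23 of the 24 measured HOX genes against paralogue group number, by cluster, with 1 panel per pair of days. Filled points passed an adjusted p under 0.05: HOXA2 in the first, HOXA11 in the second, and HOXA2, HOXA3, HOXB5 and HOXA11 in the third.

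Counting only whether the libraries of the days overlapped, 7 of 24 HOX genes did not overlap between day 16 and day 6, against 38.7% of all genes. They included HOXA4, which was higher at day 16, and HOXA2, HOXA7, HOXD3, HOXD9 and HOXD10, which were lower. Between day 19 and day 16 the count was 3, HOXA11 above and HOXA3 and HOXB5 below, against 23.9% of all genes. For day 19 and day 6 it was 11, with 3 higher and 8 lower, against 38.5% of all genes.

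Among the partners and regulators of HOX proteins, the cofactor PBX3 fell and the others mostly did not pass. Of 11 listed genes of the TALE homeodomain class, to which PBX and MEIS belong, 10 were tested. PBX3 had 37.4, 39.1 and 46.7 CPM at day 6, 15.2, 12.8 and 18.8 CPM at day 16, and 13.5, 15.1 and 11.7 CPM at day 19. Both later days lay below day 6 without overlap, with log2 fold changes of -1.40 at day 16 (adjusted p = 0.00317, edgeR) and -1.61 at day 19 (adjusted p = 0.000979), called whichever library was left out. TGIF1, a repressor of the same class, was the other called member, higher at day 19 than at day 6 with 94.5 ± 13.7 CPM against 59.6 ± 4.42 CPM (log2 fold change 0.66, adjusted p = 0.016), and lost without the first or the second day 6 library (adjusted p up to 0.0719). MEIS1, of the MEIS partner family, had 70.2 ± 22.9 CPM at day 6, 82.3 ± 12.2 CPM at day 16 and 72.1 ± 12.01 CPM at day 19, and was not called. Between day 19 and day 16 none of the 10 was called (1 at unadjusted p under 0.05).

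Of all genes, 8.86% were called between day 16 and day 6, 1.2% between day 19 and day 16 and 22.9% between day 19 and day 6, and the lists are read against these shares. Of 23 Polycomb genes tested, 2 were called higher and 2 lower between day 16 and day 6, none between day 19 and day 16 (6 at unadjusted p under 0.05), and 1 higher and 4 lower between day 19 and day 6. CBX2, a chromobox subunit of the repressive complex, fell at both later days, with 50.9 ± 12.9 CPM at day 6, 17.2 ± 4.74 CPM at day 16 and 13.4 ± 5.33 CPM at day 19. Its log2 fold changes were -1.92 at day 19 (adjusted p = 0.00395) and -1.56 at day 16 (adjusted p = 0.0172), the second of which was lost in 4 of 9 fits without 1 library (adjusted p up to 0.0769). Of 17 Trithorax genes, 1 was called, KDM6B, an eraser of the Polycomb mark, lower at day 19 than at day 6 (log2 fold change -1.46, adjusted p = 0.0211, from -2.08 to -1.15 without 1 library, lost in 3 of 9 such fits). In the other comparisons none of the 17 was called (0 at unadjusted p under 0.05 between day 16 and day 6, 2 between day 19 and day 16). The summed CPM of that list was 1465 in the first day 19 library, 718 and 730 in the other day 19 libraries, and from 1315 to 1520 at the earlier days. The members differed in this. KMT2A had 116, 6.29 and 10.7 CPM in the day 19 libraries, against 102 to 140 CPM at day 16. WDR5 had 13.6, 19.4 and 16.9 CPM at day 19, against 9.80 to 13.6 CPM at day 16. With such a spread within day 19, the lack of calls does not show that the list was unchanged.

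Of 8 listed genes that HOXA10 is reported to control or bind in human or mouse uterus, 2 were called higher and 1 lower between day 16 and day 6, and 3 higher and 3 lower between day 19 and day 6, against 8.86% and 22.9% of all genes. EMX2, a homeobox gene that HOXA10 represses in human endometrium, had 87.2, 111 and 90.6 CPM at day 6, 132, 157 and 138 CPM at day 16, and 197, 317 and 338 CPM at day 19. Its 3 days did not overlap, and its log2 fold change between day 19 and day 6 was 1.56 (adjusted p = 0.0017, edgeR), called whichever library was left out. ITGB3, the beta-3 integrin that HOXA10 activates in human endometrial cells, was the 1 gene of the list called between day 19 and day 16. It had 23.9, 48.4 and 34.0 CPM at day 6, 43.9, 73.2 and 94.0 CPM at day 16, and 16.9, 5.29 and 5.29 CPM at day 19. The log2 fold change between day 19 and day 16 was -2.94 (adjusted p = 0.0449, edgeR). Without the first day 19 library it was -3.72 (adjusted p = 0.000298), in a fit that called 44.7% of all genes. Without any other library ITGB3 lost the call (adjusted p from 0.0748 to 0.175), in fits that called at most 0.0978% of all genes. IGFBP1, a marker of decidual cells in humans, had 1 read over the 3 day 6 libraries, 3471 at day 16 and 563 at day 19. Scaled to depth, the ratio to day 6 was 3633 at day 16 (95% interval 652 to 143600, counting error only) and 581.5 at day 19 (104 to 23010).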

How the data were processed

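Poly(A) RNA of 9 libraries was sequenced on an Ion Proton, per the labels' protocols and the series design text. The deposited table gives raw read counts, 1 row per gene and 1 column per library. No aligner, counter, genome build or strand setting is given in the sources used here. No coordinates or sequences are therefore printed, and the ARS1.2 gene table was used only for names and neighbours.

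Counts were analysed with edgeR 4.0.16 in R 4.3.3: TMM scaling, filterByExpr on the day (16098 of 25671 rows kept), and a robust quasi-likelihood fit to all 9 libraries with day as the only term. P-values were adjusted over all 16098 genes. The SE is the absolute log2 fold change divided by the square root of F. No pair of replicates agreed within sampling noise. The code was tested on simulated data.

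Every HOX row is accounted for in the counts, but some genes are not reported here by name or value. Library values are given for HOX genes called in any comparison, for HOXA9, HOXA11 and HOXA13, for the row carrying the HOXA10 identifier, and for members whose libraries stand apart, which were chosen after their values were seen. Of other lists, up to 4 called members per comparison, and MEIS1, could be named. KMT2A and WDR5 were named after their values were seen. Members and lists were chosen with earlier results of these data known. Alternatives were DESeq2 1.42.0, voom quality weights (limma 3.58.1), other scalings and filters, non-robust estimation, fits to the libraries of 2 days, a replicate block, each library left out, and, added after the data were seen, the first libraries of day 6 and day 19 left out together. The labels do not say whether equal replicate numbers link samples.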

Additional observations from a re-analysis of the deposited data

How the results depend on the processing

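The number of HOX genes called depended on the tool and on the libraries used. For day 16 against day 6 the count of 1 became 3 with DESeq2, 6 with voom quality weights, 5 with only the libraries of the 2 days and 0 to 5 without 1 library. For day 19 against day 16 the count of 1 became 3, 10, 0 and 0 to 10 under the same settings. For day 19 against day 6 the count of 4 became 9 with voom, 2 without the low-count filter, 2 with only the libraries of the 2 days and 2 to 9 without 1 library, while DESeq2 gave 6. For any difference among the 3 days the count of 3 became 7 with DESeq2, 14 with voom and 2 to 15 without 1 library. Voom called 23.7%, 45.7%, 58.6% and 66% of all genes in those tests. Fits to the libraries of 2 days called 19.8%, 0% and 15% of all genes in the 3 comparisons. Fits without 1 library called from 4.05% to 20.4%, from 0% to 44.7% and from 11.8% to 54.2% of all genes there. For any difference they called from 8.64% to 59.1%. Among the fits without 1 library, the highest count in each of the 4 tests was the one without the first day 19 library. Leaving out the first libraries of day 6 and day 19 together, an alternative added after the data were seen, gave 5, 11, 9 and 14 in the same order. The cause of these shifts was not tested. The counts under RLE scaling were 1, 1, 4 and 3, as with TMM.

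With the replicate number as a block, the counts were 0 (5 at unadjusted p under 0.05), 0 (6 at unadjusted p under 0.05), 2 and 2, the last counts being HOXA2 and HOXA11. The block fit called 6.83%, 0%, 18% and 13.7% of all genes in the same order. The labels do not say whether equal numbers link samples. Correlations of same-numbered deviations ran from -0.164 to 0.153, 1 of 9 pairs exceeded 0.1, and 2 of 9 libraries correlated best with their own number. With 3 libraries per day, such correlations cannot exclude a shared batch or a pairing. With only the libraries of day 19 and day 16, 5 HOX genes had an unadjusted p under 0.05, and 0% of all genes were called. Of the single-gene values, 471 kept direction and call, 112 lost the call, 4 gained it and none changed sign. Of the measured HOX genes, those of HOXC had the lowest counts.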

Other observations

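Other transcripts lie between the HOX genes. LOC102169699, a long noncoding RNA between HOXB3 and HOXB2, had 28.3, 28.9 and 25.9 CPM at day 16, against 16.4, 15.5 and 12.9 CPM at day 6, without overlap (log2 fold change 0.89, SE 0.23, adjusted p = 0.0418, edgeR). The call was lost in 7 of 9 fits without 1 library (adjusted p from 0.0597 to 0.176). At day 19 it had 13.4, 17.8 and 23.5 CPM. HOXB2 and HOXB3, on either side of it, had log2 fold changes of 0.11 and -0.40 between day 16 and day 6, neither called. LOC106503278, a second noncoding RNA in the same gap, had 3.01, 9.09 and 12.6 CPM at day 19, with the first day 19 library low as in HOXB2, and was not called. The microRNA row MIR10B, between HOXD8 and HOXD3, had 39, 22 and 25 reads at day 6, 15, 20 and 11 at day 16, and 24, 8 and 6 at day 19, with no call. MIR196A, MIR196B and MIR10A had 13, 12 and 2 reads in all and were not tested; the libraries were made from poly(A) RNA.

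Of 14 tested genes of Müllerian duct and uterine patterning, 3 were called higher and 2 lower between day 16 and day 6, and 5 higher and 4 lower between day 19 and day 6; between day 19 and day 16 none was called (6 at unadjusted p under 0.05). Of all genes, 8.86%, 22.9% and 1.2% were called in these comparisons. MSX1, a homeobox gene whose fall in the mouse uterus accompanies implantation, had 175 ± 10.1 CPM at day 6, 46.7 ± 12.9 CPM at day 16 and 49.8 ± 22.6 CPM at day 19 (log2 fold change from day 6 -1.90 at day 16, adjusted p = 0.00977, and -1.81 at day 19, adjusted p = 0.0065, edgeR). The day 16 call of MSX1 was lost without the first or the second day 16 library (adjusted p up to 0.0515). Epithelial markers summed to 736 to 817 CPM at day 6, 1179 to 1234 CPM at day 16 and 817 to 1303 CPM at day 19; their part in these values was not tested.

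Of 8 tested genes of retinoic acid and CDX control, 1 was called lower between day 16 and day 6 and 3 lower between day 19 and day 6, none higher, against 3.74% and 10.2% of all genes called lower. Of 5 steroid receptors, 1 was called lower at day 16 and 3 at day 19 relative to day 6, beside the same shares of all genes. ESR1, the oestrogen receptor alpha, had 752 ± 47.4 CPM at day 6, 318 ± 73.8 CPM at day 16 and 167 ± 58.5 CPM at day 19 (log2 fold change from day 6 -1.24 at day 16, adjusted p = 0.0244, and -2.17 at day 19, adjusted p = 0.0011, edgeR). The day 16 call of ESR1 was lost in 5 of 9 fits without 1 library (adjusted p up to 0.104).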
